A study of Homo sapiens with 4 samples.

Results

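The 8 genes each hold 1 of the strongest peaks listed after induction of tagged SNAIL1 in the established human colorectal cancer cell line LS174T. They are LRRC8B, GPR137B, ZMIZ2, RBCK1, CAST, PLK5, SPIRE2 and RNF144A. They were chosen by measured values, and the body of each holds a site among the 15 that stood highest of the 661 shared by both lists of induced cells. For this order, percentiles of fold enrichment were averaged over both lists. Peaks listed in 1 induced library alone were not ranked. All peaks whose summit lay within 10 kb of these gene bodies (build hg19) were then taken, which gave 19 of the 2177 peaks in 4 lists. The strength of the 8 sites in induced cells is therefore a description and not a finding.

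The cells are named pN1-LS174T Snail1-HA in the labels and carry a doxycycline-inducible gene for murine SNAIL1 with a hemagglutinin (HA) tag. In all 4 libraries chromatin was precipitated with the same anti-HA antibody (ChIP-seq). Induced cells (2 libraries, induced 1 and induced 2) had received 0.1 mg/ml doxycycline for 6 h, and uninduced cells (2 libraries, uninduced 1 and uninduced 2) were the same cells left untreated. The tagged protein is murine and made from an added gene, and whether the line is 1 clone or a pool is not stated in the labels. The libraries of a condition are called biological replicates by the submitters, with no word on separate cultures. SDs thus measure only the spread between these libraries, which may be technical. The p-values below come from a binomial test on reads, cover counting error only and leave that spread out.

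SNAIL1 is a DNA-binding repressor with zinc fingers and a driver of epithelial-mesenchymal transition, in which epithelial cells lose their junctions and polarity. It binds the E-box CAGGTG, which reads CACCTG on the other strand, and recruits chromatin-modifying corepressors to promoters such as that of the E-cadherin gene. The 8 genes belong to no single pathway. RBCK1 and RNF144A encode ubiquitin ligases of the RING-between-RING family, and RBCK1 (also HOIL-1) is a subunit of the complex that builds linear ubiquitin chains. LRRC8B is a subunit of volume-regulated anion channels, and GPR137B is a lysosomal membrane protein. ZMIZ2 is a PIAS-like coactivator of the androgen receptor and of beta-catenin. CAST encodes calpastatin, the inhibitor of the calpain proteases, SPIRE2 encodes an actin nucleator, and PLK5 belongs to the polo-like kinase family.

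Each of the 8 genes held a listed peak in both induced libraries, and only GPR137B held one in uninduced cells. Induced 1 listed 8 peaks at these genes and induced 2 listed 9, a mean of 8.5 ± 0.707 (SD, n = 2). Uninduced 1 and uninduced 2 listed 1 each, a mean of 1 ± 0 (SD, n = 2). The induced and uninduced counts did not overlap. The choice of the genes fixed the 8 induced sites of each library, so no test of this difference is given, and the part of the count that the choice did not use is the uninduced lists. There 1 of the 8 sites was listed, against 0.756% of all 661 sites shared by the induced libraries (5 sites), 0.608% of the peaks of induced 1 and 0.523% of those of induced 2. A count of 1 among 8 chosen sites supports no statement about the group.

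The lists are of unequal length, at 823 peaks in induced 1, 1338 in induced 2, 5 in uninduced 1 and 11 in uninduced 2. They hold no read totals. Read pileups at the summits (the number of extended reads that cover the position) were recovered from the listed fold and p, and for all peaks of the lists had medians of 51 reads in induced 1 and 35 in induced 2. The lowest listed pileups were 28 and 17 reads in the induced lists and 37 and 35 in the uninduced lists. A gene with no listed peak in a library is thus not shown to be unbound there.

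**Figure D1:**
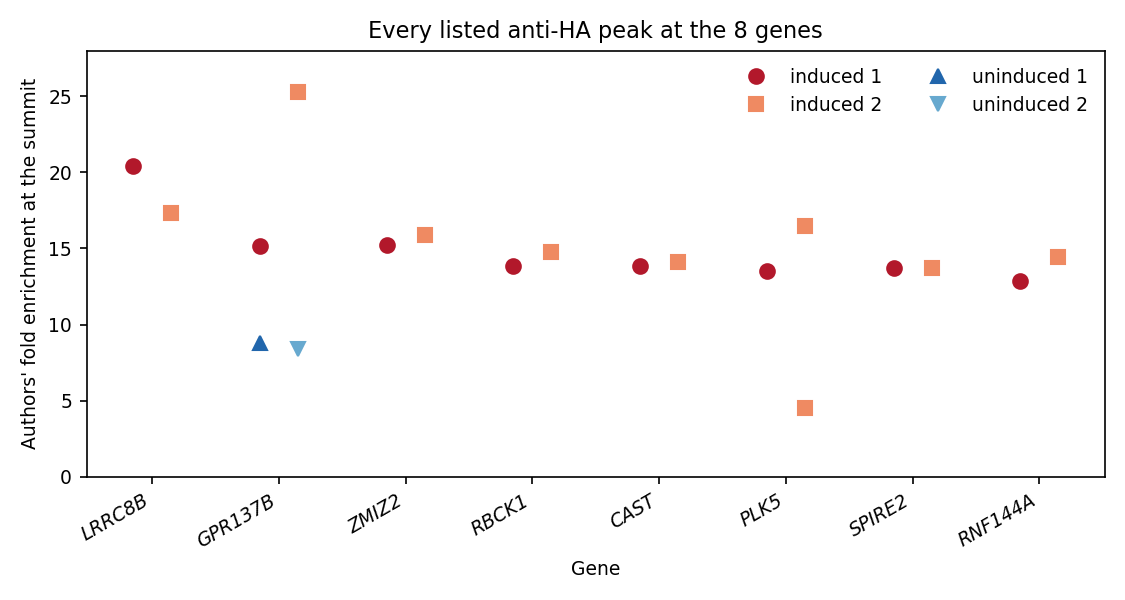
Fold enrichment as the authors list it (vertical axis, from 0) of every peak within 10 kb of the 8 genes (horizontal axis), with 1 point for each peak and library. The strong sites lie between 12.8 and 25.3 in the induced libraries, the GPR137B site is the only one with uninduced points (8.77 and 8.37), and PLK5 has a weaker peak in induced 2 (4.50).

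Fold enrichment, in these lists, is the pileup at the summit over the local control background, each raised by 1. The LRRC8B peak had a fold of 20.4 in induced 1, the highest of that list, and 17.3 in induced 2, a mean of 18.9 ± 2.18 (SD, n = 2). It was the only site of the 8 with a higher fold in induced 1. The GPR137B peak had 15.1 in induced 1 and 25.3 in induced 2, a mean of 20.2 ± 7.19 (SD, n = 2), and was second by fold in the longer list. The libraries differed more at this site than at any other of the 8.

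The channel subunit and the lysosomal protein were followed by ZMIZ2, the coactivator gene, with folds of 15.2 and 15.9 in induced 1 and induced 2. The PLK5 site had folds of 13.5 and 16.5. Of the ubiquitin ligase genes, RBCK1 had folds of 13.8 and 14.7 and RNF144A had folds of 12.8 and 14.5. Both ligase genes thus had slightly higher folds in induced 2, as did 7 of the 8 sites and 54.5% of the 661 shared sites. The calpastatin gene CAST had folds of 13.8 and 14.1, and SPIRE2 had a fold of 13.7 in each library. At these last 6 genes the SD of the pair ranged from 0.0156 (SPIRE2) to 2.1 (PLK5), and the mean folds ran from 13.65 (RNF144A) to 15.6 (ZMIZ2), a range narrower than the SD at PLK5.

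The choice of sites ended within a narrow range of folds. RNF144A was the last site inside, in place 15 with a mean percentile of 97.9. The first site outside, on chromosome X, had folds of 13.02 and 13.9 and a mean percentile of 97.8, so its fold in induced 1 was above that of RNF144A. Of the 15 sites, 7 lay at none of the 8 genes, and whether they lie in other genes was not examined here. The site in place 1 was among them, on chromosome 17 with folds of 19.3 and 18.4 in induced 1 and induced 2.

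**Figure D2:**
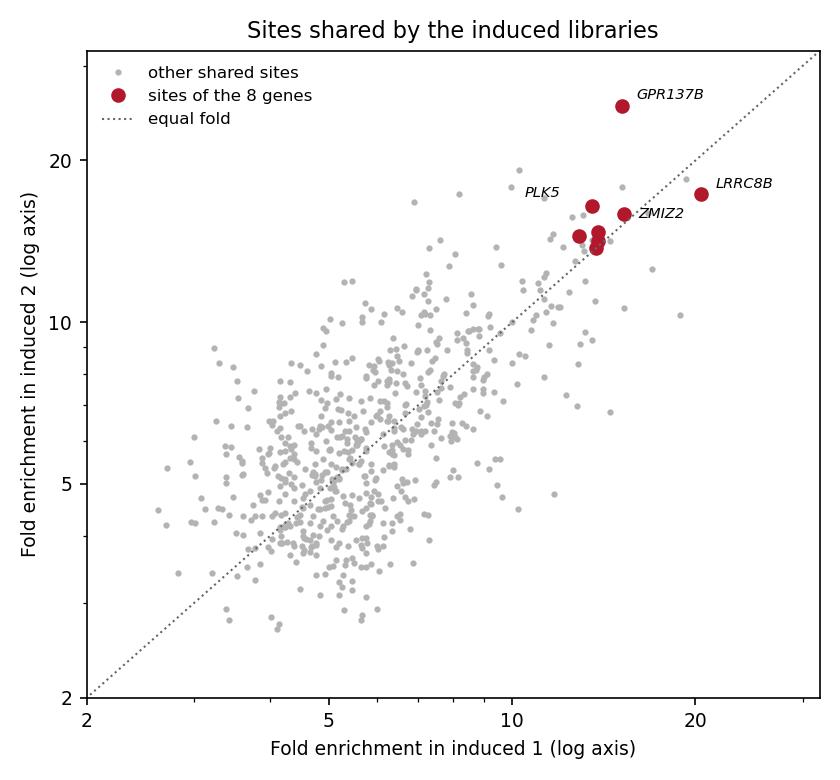
Fold enrichment in induced 1 (horizontal) against induced 2 (vertical), both on log axes, for the 661 sites shared by the induced libraries, with the 8 sites in red and 4 of them named. GPR137B stands off the line of equal fold (15.1 and 25.3), LRRC8B lies below it (20.4 and 17.3), and the unnamed 4 have folds of 12.8 to 13.8 in induced 1.

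Summit reads gave a different order of the sites. The RBCK1 site had the highest pileup of the 8 in both libraries, with 173 reads in induced 1 (95% exact Poisson interval 148 to 201) and 147 in induced 2 (124 to 173). LRRC8B had 170 reads in induced 1 (145 to 198) and 126 in induced 2 (105 to 150). ZMIZ2 had 148 and 130 reads. These 3 sites were higher in induced 1, as were 574 of the 661 shared sites.

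GPR137B, whose folds were far apart, had 147 reads in induced 1 (124 to 173) and 141 in induced 2 (119 to 166). Its fold was 1.67 times as high in induced 2, and its pileup 1.04 times as high in induced 1. The control background at this site, on the scale of ChIP reads, was 8.40 reads in induced 1 and 4.61 in induced 2, the lowest background of the 8 sites in that library. The values that entered the fold differ from these, since induced 1 was scaled down by 1.40 before calling, to 105 reads over a background of 6.00 at this site. Each raised by 1, the pileup as called was 1.34 times as high in induced 2 and the background 1.25 times as high in induced 1, and the product of these factors is the ratio of the folds. In the ratio of fold in induced 2 to fold in induced 1, the site had place 52 of 661.

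The remaining 4 sites had fewer reads. RNF144A had 138 reads in induced 1 and 118 in induced 2, and SPIRE2 had 133 and 109. PLK5 had 122 and 103 reads. CAST was the only site of the 8 with more reads in induced 2, with 101 in induced 1 (82.3 to 123) and 109 in induced 2 (89.5 to 131). Its fold reached 13.8 in induced 1 with the fewest reads of the 8, over a background of 6.00 reads, the lowest of the 8 in that library. This was also the lowest background of the whole list, at which 48 of its 823 peaks stood. The RBCK1 site had the highest backgrounds, 11.2 and 9.04 reads.

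Over all 661 shared sites the total pileup was 1.23 times as high in induced 1. An exact two-sided binomial test of each site against this ratio, with Benjamini-Hochberg adjustment over the 661 sites, called none of the 8 (0.00% of all shared sites were called). At an unadjusted p under 0.05 it called 1 of the 8, CAST, against 2.87% of all shared sites. At CAST the pileup of induced 1 was 0.927 times that of induced 2 (95% exact interval 0.70 to 1.23), with an unadjusted p = 0.044 and an adjusted p of 1. The same ratio was 1.35 (1.07 to 1.71) at LRRC8B and 1.04 (0.822 to 1.32) at GPR137B, and both intervals include 1.23. These intervals cover counting error only and take reads as independent molecules. The choice of the 8 used the folds of both induced libraries, which are computed from these pileups. Sites high in both were thus favoured, and the calls at the 8 support no statement about agreement between the libraries.

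**Figure D3:**
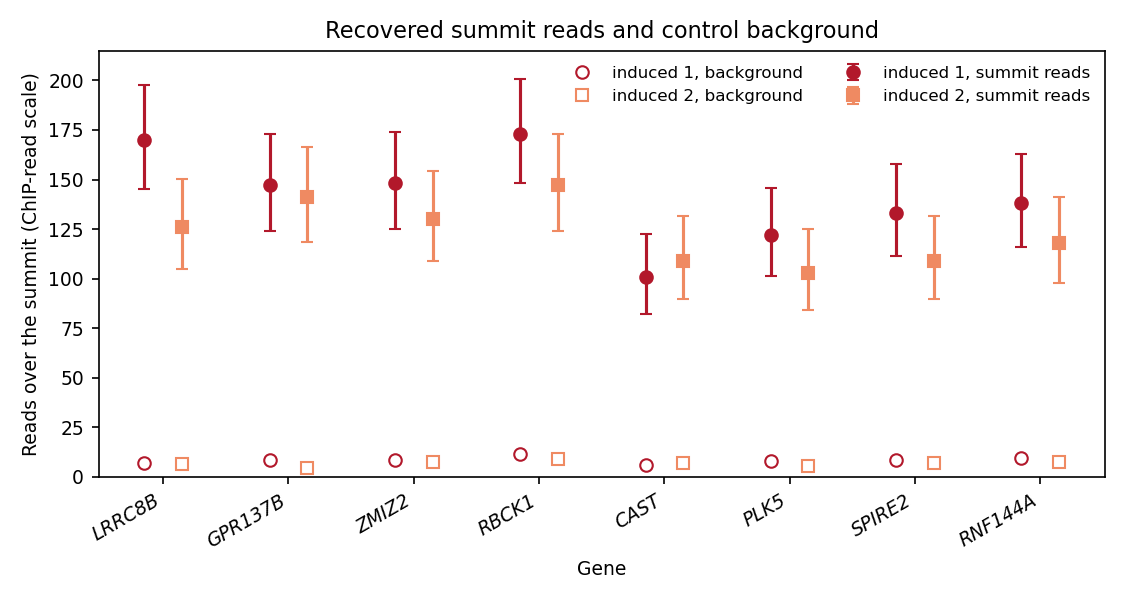
Reads over the summit of each strong site in the induced libraries (filled points, with 95% exact Poisson intervals) and the local control background (open points), both on the scale of ChIP reads, by gene. The pileups lie between 101 and 173 reads and the backgrounds between 4.61 and 11.2, and CAST alone has more reads in induced 2.

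Which sites stand highest depends on the measure. Ranked by the mean percentile of −log10 q in the 2 lists, 7 of the 8 stayed among the first 15, and CAST had place 25. Ranked by pileup, 5 of the 8 did, with RBCK1 in place 2, GPR137B in place 4, ZMIZ2 in place 6, LRRC8B in place 7 and RNF144A in place 14. SPIRE2 then had place 16, PLK5 place 26 and CAST place 37. By fold in single lists, 6 of the 8 were among the first 15 of induced 1 and 4 among those of induced 2.

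Position in the gene differed between members. All 8 sites lay inside the gene bodies, which were 11.4 to 127 kb long. The 7 genes with an entry in the RefSeq promoter table lie on the plus strand, so the lower coordinate is their start (PLK5 has no entry). Distances are counted from the lower-coordinate end. Exons and introns of hg19 were not used here, so sites are placed only relative to the ends of the gene body.

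At LRRC8B, ZMIZ2 and CAST the summit lay just past the gene start. The LRRC8B gene runs on chromosome 1 from 89990397 to 90063432, and its peak was listed in induced 1 from 89990426 to 89991029 and in induced 2 at 89990405 to 89990967. The summits lay 298 and 254 bp past the start. The ZMIZ2 gene runs on chromosome 7 from 44788180 to 44809477. Its peak, in induced 1 from 44788294 to 44788919 and in induced 2 at 44788284 to 44788930, had summits 503 and 523 bp past the start. CAST runs on chromosome 5 from 95997769 to 96110386, with a peak in induced 1 from 95998079 to 95998607 and in induced 2 at 95997905 to 95998583. Its summits lay 589 and 560 bp past the start. All 6 of these peaks began after the start, by 8 bp (LRRC8B in induced 2) to 310 bp (CAST in induced 1).

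Annotated promoter windows of these 3 genes are shown because their summits lie near the start of the gene body. The lines below give windows of 300 bases, from 250 before to 50 after a start, from RefSeq on build GRCh38.p14, plus strand, 5′ to 3′, with CACCTG or CAGGTG in capitals. Positions were not carried between builds, so these windows were not set against the hg19 peaks. They also end 50 bases after a start, while the summits lay 254 to 589 bp past the start of the gene body. The windows are thus not shown to hold the sequence under the peaks. LRRC8B has 1 window in the table. ZMIZ2 has 3 and CAST has 5, of which the one that holds the motif is shown for each. These are not the first windows of those genes, and need not belong to the start from which the summit distances were counted.
LRRC8B, chr1:89524579-89524878: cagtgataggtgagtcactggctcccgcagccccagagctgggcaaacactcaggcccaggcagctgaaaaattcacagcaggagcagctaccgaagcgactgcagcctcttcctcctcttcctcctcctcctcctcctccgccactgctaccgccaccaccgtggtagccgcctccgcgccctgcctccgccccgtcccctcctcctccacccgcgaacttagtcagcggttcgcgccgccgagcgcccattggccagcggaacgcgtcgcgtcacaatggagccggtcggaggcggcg
ZMIZ2, chr7:44748597-44748896: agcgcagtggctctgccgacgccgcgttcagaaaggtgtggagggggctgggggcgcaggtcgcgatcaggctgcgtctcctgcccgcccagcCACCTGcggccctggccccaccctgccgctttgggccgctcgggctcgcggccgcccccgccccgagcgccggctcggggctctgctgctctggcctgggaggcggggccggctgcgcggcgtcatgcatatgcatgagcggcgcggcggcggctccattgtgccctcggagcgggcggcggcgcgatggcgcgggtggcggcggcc
CAST, chr5:96662775-96663074: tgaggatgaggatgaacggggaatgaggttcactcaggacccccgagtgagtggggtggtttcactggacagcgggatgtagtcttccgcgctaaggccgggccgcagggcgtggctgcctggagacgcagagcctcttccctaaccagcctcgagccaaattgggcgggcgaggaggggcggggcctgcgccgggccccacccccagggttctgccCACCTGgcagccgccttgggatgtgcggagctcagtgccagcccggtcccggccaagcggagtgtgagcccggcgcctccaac

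The LRRC8B window holds neither CACCTG nor CAGGTG. The ZMIZ2 window shown holds CACCTG 1 time, beginning 157 bases before that start, and the CAST window holds it 1 time, beginning 33 bases before its start. Both strands were searched, since the 2 spellings are each other's reverse complement. Among the 14 windows of the 7 members in the table these were the only 2 with the motif (14.3%), against 20.6% of all 35116 windows. Counted by gene, 2 of 7 members had it in any window, against 24.1% of 27305 genes. The wider E-box CANNTG was in 7 of the 14 windows, against 68.7% of all. The 14 windows include those of RBCK1, GPR137B, SPIRE2 and RNF144A, whose sites lay deeper in the gene. A match is a description of letters and not a bound site, and the lack of one does not describe the sequence under a peak.

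The other 5 sites lay deeper in the gene. The PLK5 gene, on chromosome 19 from 1524072 to 1535455, had its site in induced 1 from 1528377 to 1528933 and in induced 2 at 1528317 to 1529008, with summits 4.59 kb from the lower end in both. In RBCK1, on chromosome 20 from 388709 to 411610, the peak lay in induced 1 from 400193 to 400702 and in induced 2 at 400172 to 400861. Its summits were 11.7 kb past the start, at 51.1% of the gene's length. In SPIRE2, on chromosome 16 from 89894907 to 89937727, the peak lay in induced 1 from 89913888 to 89914359 and in induced 2 at 89913881 to 89914351, 19.2 kb past the start.

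GPR137B, on chromosome 1 from 236305832 to 236372209, had its peak in induced 1 from 236332266 to 236332733 and in induced 2 at 236332253 to 236332771. The summits lay 26.7 kb past the start, at 40.2% of the gene's length. RNF144A, on chromosome 2 from 7057523 to 7184309, was the longest of the 8 and the only one with its site in the last part of the gene. The peak lay in induced 1 from 7171774 to 7172240 and in induced 2 at 7171785 to 7172227, 114 kb past the start and 12.3 kb before the gene's end, at 90.3% of its length.

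**Figure D4:**
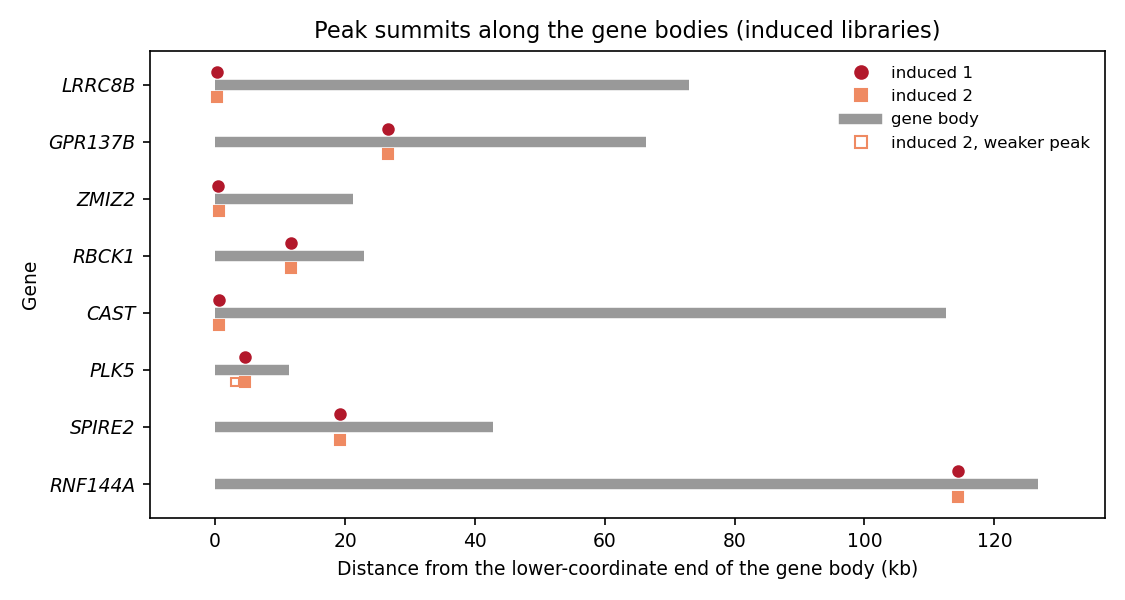
Summits of all peaks of the induced libraries (points) along the 8 gene bodies (grey bars, to scale), in kb from the lower-coordinate end. This end is the start of the 7 genes with an entry in the promoter table. PLK5 has no entry, so its strand was not taken from there. LRRC8B, ZMIZ2 and CAST have their summits within 0.589 kb of the start, and RNF144A has its summits 114 kb into the gene.

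The induced libraries placed the summits close together. They lay 2 bp apart at SPIRE2, 4 bp at PLK5, 8 bp at both GPR137B and RNF144A, 19 bp at RBCK1, 20 bp at ZMIZ2, 29 bp at CAST and 44 bp at LRRC8B. Summits at most 25 bp apart were found at 6 of the 8 sites, against 55.5% of all shared sites. The median distance was 13.5 bp at the 8 sites and 23 bp over all 661. The rule did not use this distance, but the 8 sites had more reads than most shared sites. Their median pileups were 142.5 reads in induced 1 and 122 in induced 2, against 55 and 45 over all 661. No comparison with sites of like pileup was made. The sites that lie deep in their genes had distances of 2 to 19 bp and those near the gene starts 20 to 44 bp, a split noticed after the values were seen and not tested.

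The peaks of the 8 sites were wide for their lists. Their widths ran from 467 bp (RNF144A) to 626 bp (ZMIZ2) in induced 1, where the list's median was 338 bp, and from 443 bp (RNF144A) to 692 bp (PLK5) in induced 2, with a list median of 336.5 bp. Strong peaks were wider in general, since the peaks above the 75th percentile of fold in each list had median widths of 418 and 422 bp. The RBCK1 peak had its summit 36.5 bp from the peak's middle in induced 1 and 124.5 bp in induced 2, where the peak reached further towards the gene's end. The GPR137B, PLK5, SPIRE2 and RNF144A summits lay within 21 bp of the middle in both libraries.

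**Figure D5:**
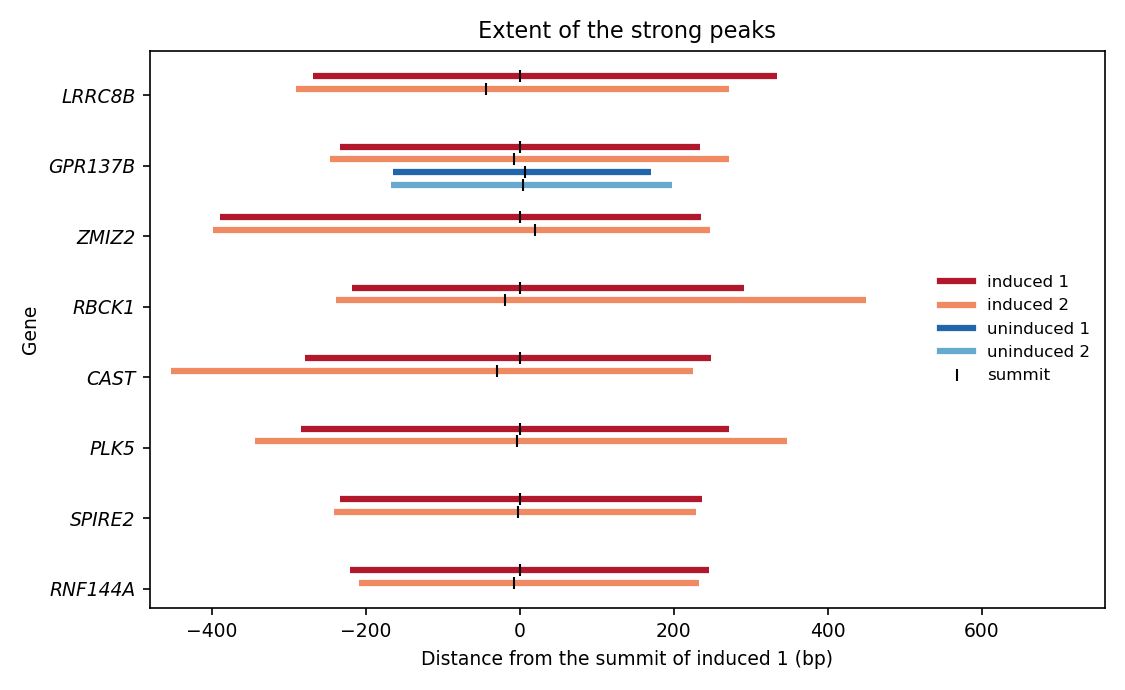
Extent of each strong peak (bars) and its summit (ticks) in bp from the summit of induced 1, by gene and library. The summits of the libraries lie 2 to 44 bp apart, the RBCK1 and CAST peaks of induced 2 extend to one side, and the GPR137B peaks of uninduced cells (337 and 366 bp) are narrower than those of induced cells (468 and 519 bp).

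The GPR137B site was the only 1 of the 8 listed without doxycycline. Whether the signal there without doxycycline comes from the tagged protein was not tested. Uninduced 1 had a peak from 236332334 to 236332670 with a fold of 8.77 and 54 reads (95% exact Poisson interval 40.6 to 70.5) over a background of 5.27. Uninduced 2 had a peak from 236332332 to 236332697 with a fold of 8.37 and 69 reads (53.7 to 87.3) over a background of 7.36. The fold had place 3 of 5 in uninduced 1 and place 1 of 11 in uninduced 2. Both values lay below both induced values, and the mean fold was 20.2 ± 7.19 in induced and 8.57 ± 0.283 in uninduced cells (SD, n = 2 each), a ratio of 2.36. The induced folds chose this site, so no test is given. Summits of the 4 libraries fell within 15 bp of each other.

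The PLK5 gene was the only 1 of the 8 with a second peak. It was listed in induced 2 alone, from 1527009 to 1527289, with a fold of 4.50 and 32 reads (21.9 to 45.2), and had place 815 of 1338 by fold. Its summit lay 1520 bp before that of the strong site, which had 3.22 times as many reads, and 1027 bp separated the peaks. The distance to other peaks is set beside that of shared sites in general. In induced 2, 1 of the 8 had another peak within 10 kb, against 10.1% of shared sites, and in induced 1 none had, against 8.93%. The nearest other peak lay a median of 708 kb away in induced 1 (362 kb over all shared sites) and 146 kb in induced 2 (208 kb over all shared sites). By the median, the 8 thus lay farther from other peaks than shared sites in general in induced 1, and nearer in induced 2. The distances were widely spread, in induced 2 from 1.52 kb (PLK5) to 1425 kb (RNF144A). These opposite directions at 8 chosen sites support no statement about the group.

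The protein-coding neighbours of the 8 genes are given by RefSeq's order on GRCh38.p14. LRRC8B lies between GBP6 and LRRC8C and overlaps LOC128092251. LRRC8C encodes another subunit of the same channels. RNF144A lies between RSAD2 and ID2, RBCK1 between TRIB3 and TBC1D20, and SPIRE2 between FANCA and TCF25. ZMIZ2 lies between OGDH and PPIA, GPR137B between NID1 and ERO1B, and PLK5 between ADAMTSL5 and MEX3D. RefSeq's CAST gene starts further out than the body used here and overlaps ELL2, PCSK1 and ERAP1. The sites lie inside the 8 genes, and the lists hold no expression values for these or their neighbours.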

How the data were processed

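Binding was measured by ChIP-seq in 4 libraries, grouped by title. Per the submitters' processing notes, the tools were MACS2 2.1.1.20160309, BWA 0.7.15 and Trimmomatic 0.36, with build hg19. Peak threshold, duplicate treatment and control libraries are not stated in these sources. For each library the authors deposited a separate narrowPeak list, with a fold enrichment (a ratio over background), a p-value and a q-value as −log10, and a score for each peak. These are the authors' values for single peaks and were used to describe and rank peaks within a list.

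The members and lists were chosen with earlier results of these data known. All 8 genes and every peak with a summit within 10 kb of their bodies are described. Fold and p were solved for pileup and background (MACS2 adds a pseudocount of 1), which gave whole pileups for all 2177 peaks, to within 0.0005 of the listed −log10 p or, in induced 1, of the scaled pileup. Pileups of induced 1 had been scaled down by 1.40 for calling and are given unscaled. Backgrounds are given on the scale of ChIP reads. Shared peaks overlapped by at least 1 bp. Percentiles are ranks within a list. Python 3.11.15 and scipy 1.17.1 were used, and the recovery and the binomial test were tested on simulated data.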

Additional observations from a re-analysis of the deposited data

How the results depend on the processing

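The mean number of peaks at the 8 genes was higher by 7.5 in induced cells, and by 7 to 8.5 under every setting run (gene bodies alone, windows of 1 and 50 kb, a fold of at least 5, a −log10 q of at least 5). Leaving out 1 library gave 7 to 8. With a replicate block by library number the difference was again 7.5. The choice of the genes fixed 8 peaks in each induced library, so these values say nothing about stability and no p is given. Library numbers are not stated to mark a shared batch, and the lists give no value where no peak is listed, so pairing could not be checked. All 8 sites were shared, and 1 was listed in uninduced cells, under each overlap, fold or window setting run. The choice of shared sites with high folds inside the genes fixed the sharing, except under the stricter overlap and summit distance settings. Ranked by pileup, 5 of the 8 were among the first 15. In single lists, a choice added after seeing the data, 4 were (without induced 1) or 6 (without induced 2), which follows from ranking 1 library alone. Taking out the depth ratio of 1.45, inferred from genome-wide backgrounds, in place of 1.23 left none of the 8 called by the exact binomial test, but brought the lowest adjusted p, that of CAST, from 1 to 0.0915 and added GPR137B to those with an unadjusted p under 0.05. Over all shared sites this setting called 5, against 0. The choice of the 8 used these pileups through the folds, so the calls at the 8 say nothing about stability. Genes related to the 8 were not run, since they need hg19 coordinates.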

Other observations

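Beyond 10 kb and up to 50 kb from the gene bodies, induced 2 alone listed further peaks, 1 near CAST and 1 near GPR137B. They are named by distance alone. The CAST peak, on chromosome 5 from 96143028 to 96143283, lay 32.8 kb past the gene's end, with a fold of 4.25 and 34 reads. Whether it lies in another gene, such as ERAP1, was not examined. The GPR137B peak, on chromosome 1 from 236260323 to 236260817, lay 45.2 kb before the gene's start. It had 144 reads, more than the 141 of the strong GPR137B site, but over a background of 75.04 reads, and its fold of 1.91 had place 1337 of 1338.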
